A study of Mus musculus with 11 samples.

Results

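The genes described here encode the Wnt ligands, their receptors, the secreted proteins that bind either of them, and a few intracellular genes of the pathway. They were chosen by their mouse symbols and by count, and a symbol was kept when at least 10 reads were counted on it in 2 or more of the 11 libraries. Of 55 genes with such symbols among the 25006 genes counted, 41 met the count rule. Of these, 40 also passed edgeR's own filter on low counts and were tested, and Lef1 was not tested. Members by role were 11 Wnt ligands, 3 R-spondins, 11 receptors (9 Frizzled genes, Lrp5 and Lrp6), 3 Lgr receptors of the R-spondins, 7 secreted inhibitors, 4 intracellular feedback genes (Axin1, Axin2, Nkd1 and Nkd2) and 2 nuclear factors (Lef1 and Tcf7).

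RNA came from left ventricle of naive mice or of mice 9 days after myocardial infarction (MI), which was produced by permanent ligation of the left anterior descending coronary artery. Infarcted tissue was taken after MI and a matching piece of ventricle from naive mice, 1 mouse per library. Vegfc-deficient mice were Vegfc fl/fl ; LysMCre, which removes Vegfc in cells that express lysozyme M (macrophages and neutrophils), and all other cells of the heart keep the gene. The genotype labels give the controls as Vegfc fl/fl, whereas the labels' protocol and the study's methods give them as LysMCre mice. Groups were naive control (n = 2, libraries M44 and M45), naive Vegfc-deficient (n = 3, M149, M150 and M34), MI control (n = 3, M006, M38 and M40) and MI Vegfc-deficient (n = 3, M35, M900 and M913). The labels give no age or strain for the mice used here. Values below are listed in that order of libraries.

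Total counts ran from 10824989 to 14585642 in naive and from 14580756 to 26782728 in MI libraries. Values are CPM, counts scaled to library size with edgeR's TMM factors, in which 3 counts in 1 library equal 0.101 to 0.363 CPM. Lyz2, into which LysMCre is inserted, ranged from 2121 to 5380 CPM in controls and from 12.4 to 1392 CPM in 5 of 6 Vegfc-deficient libraries. M149, although labelled naive Vegfc-deficient, had 4565 CPM, so calls and genotype values that turn on it are given with and without it. Without M149 the log2 fold change after MI in Vegfc-deficient hearts was 4.78 for Sfrp2, 4.13 for Dkk3, 2.81 for Frzb, 3.43 for Sfrp1, 1.52 for Nkd1, 3.08 for Nkd2, 3.12 for Fzd2 and 2.90 for Fzd1, and these 8 calls remained. Vegfc itself, at 21.9 to 45.5 CPM in the controls and 22.4 to 34.5 CPM in the Vegfc-deficient libraries, did not separate the genotypes in whole tissue. Xist reached 187.7 to 403.4 CPM after MI and 0.624 to 11.8 CPM in naive hearts, with Y-linked genes the other way, so that MI and this difference cannot be told apart. Summed cardiomyocyte markers (8 of 8 genes matched) ran from 56453 to 77835 CPM in naive and from 1945 to 18173 CPM in MI libraries. Summed fibroblast markers (8 of 8) ran from 5393 to 7235 CPM and from 23230 to 38303 CPM, and activated fibroblast markers (8 of 8, among them Postn, Fn1 and Acta2) from 606.2 to 1032 CPM and from 10624 to 18760 CPM. In bulk tissue, fewer cells of a type and less RNA per cell cannot be told apart, and the part of these shifts in the results below was not tested.

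Wnt proteins are secreted lipid-modified ligands that bind Frizzled receptors, with Lrp5 or Lrp6 as coreceptors in the branch that stabilizes beta-catenin. Stabilized beta-catenin binds the nuclear factors Lef1 and Tcf7 and their relatives, and some of their target genes, such as Axin2 and Nkd1, encode proteins that damp the same signal. Secreted Frizzled-related proteins (the Sfrp genes and Frzb) and Wif1 bind Wnt ligands, Dkk proteins act at Lrp5 and Lrp6, and R-spondins raise Frizzled levels at the cell surface through the Lgr receptors. In the adult heart the pathway is low in activity and is known to be engaged in fibroblasts and other cells of the healing infarct.

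The promoters of 4 members are shown because these genes span the range of results, from an inhibitor with a large rise to a feedback gene that did not pass the test. Coordinates of genes are those of GENCODE M21 on GRCm38. Each sequence is the 250 bases before the RefSeq start of the gene, in the build GRCm38.p6, 5′ to 3′ on the gene's strand, and capitals mark CTTTGA or its reverse complement TCAAAG, the core letters recognised by the Lef1 and Tcf7 family. Sfrp2 lies on chromosome 3 (+ strand, window chr3:83766071-83766320), Nkd2 on chromosome 13 (- strand, chr13:73847632-73847881), Axin2 on chromosome 11 (+ strand, chr11:108920099-108920348) and Wnt11 on chromosome 7 (+ strand, chr7:98834862-98835111).
Sfrp2: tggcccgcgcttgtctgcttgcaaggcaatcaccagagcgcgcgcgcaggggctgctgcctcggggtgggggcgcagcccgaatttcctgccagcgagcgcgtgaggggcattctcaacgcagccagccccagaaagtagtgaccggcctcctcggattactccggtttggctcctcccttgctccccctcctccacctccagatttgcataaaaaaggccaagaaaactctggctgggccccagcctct
Nkd2: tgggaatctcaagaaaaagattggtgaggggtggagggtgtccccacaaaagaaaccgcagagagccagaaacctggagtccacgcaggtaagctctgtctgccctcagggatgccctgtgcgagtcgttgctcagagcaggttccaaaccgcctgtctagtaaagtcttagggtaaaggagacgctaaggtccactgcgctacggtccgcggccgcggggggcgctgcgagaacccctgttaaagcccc
Axin2: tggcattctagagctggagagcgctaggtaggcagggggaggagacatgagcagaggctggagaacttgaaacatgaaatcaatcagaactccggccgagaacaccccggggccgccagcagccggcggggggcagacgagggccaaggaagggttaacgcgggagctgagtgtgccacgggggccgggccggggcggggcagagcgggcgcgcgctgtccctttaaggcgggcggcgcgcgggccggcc
Wnt11: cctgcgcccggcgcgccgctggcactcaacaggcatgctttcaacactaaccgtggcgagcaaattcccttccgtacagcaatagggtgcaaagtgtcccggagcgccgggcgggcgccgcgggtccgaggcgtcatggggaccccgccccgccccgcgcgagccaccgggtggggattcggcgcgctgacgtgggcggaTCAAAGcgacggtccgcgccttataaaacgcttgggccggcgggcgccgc

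Of these 4 windows, that of Wnt11 holds the letters, 50 bases before the start. RefSeq windows were matched for 27 of the 41 members (34 windows), and 5 of the 27 held the letters on either strand in at least 1 window: Frzb, Fzd1, Lef1, Wnt11 and Wnt5b. Over all promoter windows of the same length, 13.8% (4544 of 32851) held them. That share counts windows, whereas 5 of 27 counts genes with 1 or more windows, so they are not directly comparable. A match is a run of letters and not a measured binding site.

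After MI, 6 of 7 secreted inhibitors and 5 of 9 Frizzled receptors rose in both genotypes, while most Wnt ligands did not pass the test. In control hearts 20 of the 40 tested members were higher after MI at an adjusted p under 0.05 (edgeR's quasi-likelihood F test, adjusted after Benjamini and Hochberg over 14779 genes), where 26.1% of all genes tested were higher. Lgr6 and Wif1 were lower, where 24.1% of all genes were lower. In Vegfc-deficient hearts 22 members were higher, where 29.9% of all genes were higher, and 1, Fzd6, was lower, where 27.6% were. The median log2 fold change of the members was 1.25 in control and 1.17 in Vegfc-deficient hearts, against 0.13 and 0.097 over all genes tested. Members called in both comparisons numbered 19, all of them higher in both. The count rule itself favours some of these: 8 members (Rspo2, Rspo3, Lgr5, Wnt2b, Wnt16, Wnt6, Lef1 and Dkk2) met it through MI libraries alone, and among the other 33, 16 were higher and 2 lower in control hearts and 18 higher and 1 lower in Vegfc-deficient hearts, with median log2 fold changes of 0.99 and 0.87. Leaving out the library M149 gave 19 members called in Vegfc-deficient hearts in place of 23. Wnt6 and Lgr4 were then gained, and Fzd3, Rspo2, Rspo3, Tcf7, Wnt11 and Wnt16 were lost. Leaving out naive control M45 gave 13 in control hearts in place of 22. Without M900 the count in Vegfc-deficient hearts was 16.

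**Figure D1:**
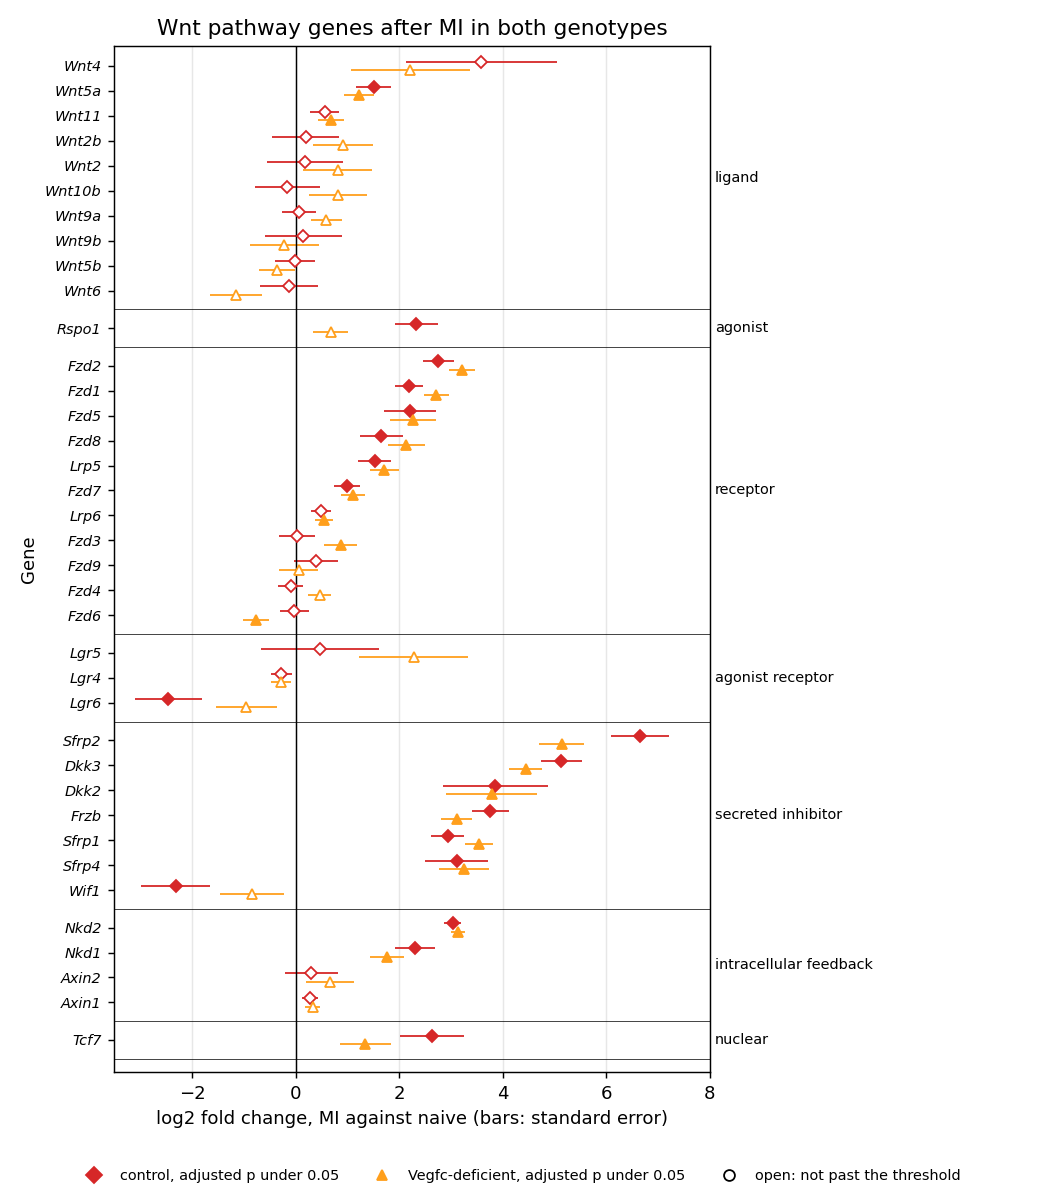
log2 fold changes (horizontal axis) of 37 members after MI in control (diamonds) and Vegfc-deficient hearts (triangles), with standard errors, grouped by role; filled symbols passed an adjusted p under 0.05 in edgeR's quasi-likelihood test. Rspo2, Rspo3 and Wnt16, whose naive groups held 0 to 3 counts in at least 1 comparison, and the untested Lef1 are left out. Sfrp2 and Dkk3 sit furthest to the right, and most ligands did not pass.

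Of the 7 secreted inhibitors 6, all but Wif1, rose after MI in both genotypes, where 26.1% of all genes in control and 29.9% in Vegfc-deficient hearts were higher. Dkk2 met the count rule through MI libraries alone, so that its rise is no support for this group or its median. The median log2 fold change of the 7 was 3.76 in control and 3.54 in Vegfc-deficient hearts. Their summed level ran from 71.4 to 133.9 CPM in naive libraries and from 1359 to 2119 CPM in MI libraries.

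Sfrp2 (ENSMUSG00000027996, chr3:83766321-83774316) encodes a secreted Frizzled-related protein known for its expression in wound and scar fibroblasts. Its level was 8.03 and 9.79 CPM in naive control, 11.1, 27.8 and 37.1 CPM in naive Vegfc-deficient, 974.9, 684.0 and 1035 CPM in MI control and 730.2, 1066 and 886.8 CPM in MI Vegfc-deficient libraries. The MI libraries all lay above the naive ones by more than an order of magnitude, and those of the MI genotypes overlapped. Sfrp2 was higher after MI by a log2 fold change of 6.65 (standard error 0.56, adjusted p = 9.7e-05 by edgeR) in control hearts. In Vegfc-deficient hearts the value was 5.14 (standard error 0.43, adjusted p = 3.4e-05 by edgeR). Per kilobase of exon, Sfrp2 was the highest member after MI, at a mean of 416.2 CPM per kilobase (range 317.7 to 495.2), with no overlap with Sfrp1, the next, at 94.9 (range 68.0 to 139.9).

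Sfrp1 (ENSMUSG00000031548, chr8:23411502-23449632), a second gene of this family, was at 45.3 and 40.8 CPM in naive control, 36.3, 42.4 and 50.05 CPM in naive Vegfc-deficient, 374.6, 297.2 and 318.0 CPM in MI control and 299.2, 588.6 and 611.6 CPM in MI Vegfc-deficient libraries. All MI libraries exceeded all naive ones, and M900 and M913 stood above the other 4 MI libraries. Its log2 fold change was 2.94 (standard error 0.32) in control and 3.54 (standard error 0.28) in Vegfc-deficient hearts. Frzb, also called Sfrp3, was at 18.5 and 14.0 CPM, at 14.4, 34.7 and 32.5 CPM, at 257.8, 191.5 and 212.4 CPM and at 221.8, 247.4 and 236.9 CPM in the same order of groups. Its MI values varied little between mice, and M149 lay with the naive controls. The log2 fold change of Frzb was 3.76 (standard error 0.36) in control and 3.11 (standard error 0.30) in Vegfc-deficient hearts. Sfrp4 was far lower, at 0.446 and 0.725 CPM, 0.981, 1.57 and 0.895 CPM, 8.94, 2.87 and 3.60 CPM, and 13.4, 10.9 and 8.12 CPM. Naive and MI libraries did not overlap for this gene, and its log2 fold change was 3.11 (standard error 0.60) and 3.25 (standard error 0.48). The largest adjusted p among these 6 tests was 0.0022 by edgeR, for Sfrp4 in control hearts.

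Dkk3 (ENSMUSG00000030772, chr7:112116017-112159057) belongs to the Dickkopf family by sequence but is less clearly an inhibitor of Wnt coreceptors than its relatives. It was at 6.24 and 4.89 CPM in naive control, 4.71, 11.01 and 11.3 CPM in naive Vegfc-deficient, 188.7, 175.0 and 223.0 CPM in MI control and 231.6, 197.5 and 158.0 CPM in MI Vegfc-deficient libraries. The lowest MI library stood more than an order of magnitude above the highest naive one. Dkk3 rose by 5.13 on the log2 scale (standard error 0.39, adjusted p = 8.2e-05 by edgeR) in control and by 4.44 (standard error 0.32, adjusted p = 2.3e-05 by edgeR) in Vegfc-deficient hearts.

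Dkk2, which binds Lrp5 and Lrp6, was at 0.535 and 0.362 CPM in naive control, 0.392, 0.242 and 0.570 CPM in naive Vegfc-deficient and 3.93, 7.54 and 8.33 CPM in MI control libraries. In MI Vegfc-deficient libraries it was at 0.646, 7.92 and 8.74 CPM. The library M35 was thus near the naive level while the other 5 MI libraries were not. M35 also had the highest summed cardiomyocyte markers and the lowest activated fibroblast markers of the MI libraries (18173 and 10624 CPM). Its summed fibroblast markers, at 31724 CPM, lay within the range of the other MI libraries (23230 to 38303 CPM). The part of these cells in the Dkk2 value was not tested. Dkk2 rose in both genotypes (log2 fold change 3.86, standard error 1.01, adjusted p = 0.010 in control, and 3.78, standard error 0.87, adjusted p = 0.0044 in Vegfc-deficient hearts, by edgeR), and the control call was lost without either naive control library. Wif1, which binds Wnt ligands directly, was named after its values were seen. It was at 3.30 and 4.53 CPM in naive control and 1.02, 1.08 and 0.257 CPM in MI control, and fell by 2.31 on the log2 scale (standard error 0.67, adjusted p = 0.015 by edgeR), a call lost without M45. In Vegfc-deficient hearts it was at 3.53, 0.847 and 1.46 CPM before and 1.59, 0.713 and 0.994 CPM after MI, groups that overlapped (log2 fold change -0.85, standard error 0.62, adjusted p = 0.26 by edgeR). Of the secreted inhibitors outside the count rule, Dkk1, the best studied Dickkopf, and Dkk4 had 0 counts in every library, and Sfrp5 just missed the rule with 1 library at 18 counts.

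**Figure D2:**
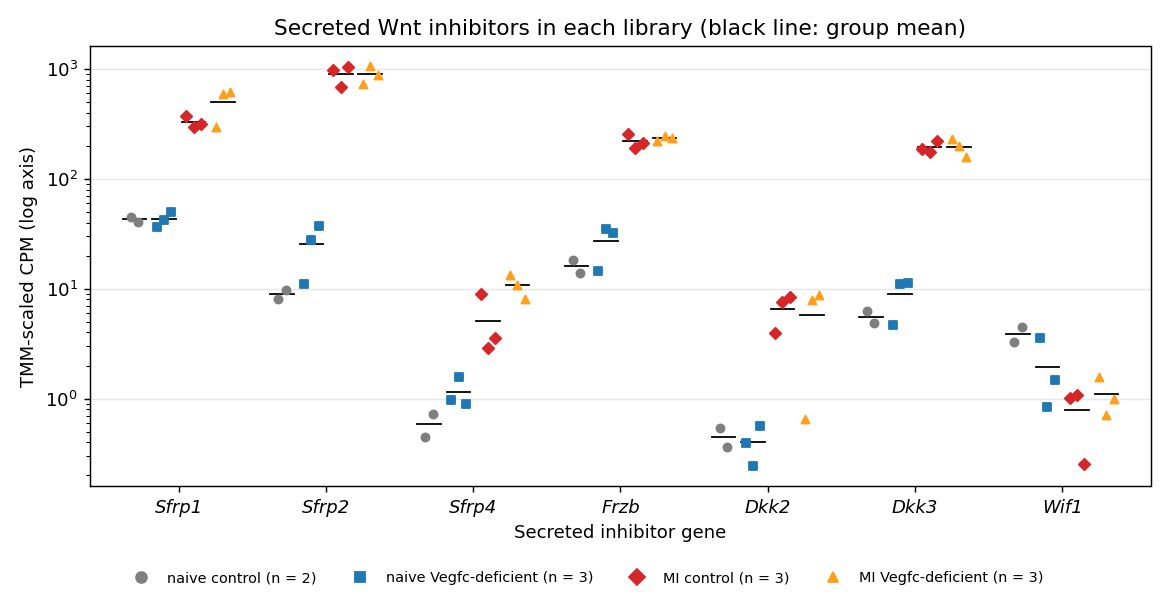
TMM-scaled CPM of the 7 secreted inhibitors in each of the 11 libraries on a log axis, by group, with black lines at group means. The 6 MI libraries lie above the 5 naive ones for Sfrp1, Sfrp2, Sfrp4, Frzb, Dkk2 and Dkk3; Dkk2 in the library M35 (0.646 CPM) and Sfrp2 in naive Vegfc-deficient hearts stand out.

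Of the 9 Frizzled genes 5, with the coreceptor Lrp5, rose after MI in both genotypes, but the receptor with the highest naive level per length, Fzd4, did not pass the test. Of 11 receptor genes, 6 were higher in control hearts (Fzd1, Fzd2, Fzd5, Fzd7, Fzd8 and Lrp5) and the same 6 plus Fzd3 and Lrp6 in Vegfc-deficient hearts, where 26.1% and 29.9% of all genes were higher. Median log2 fold changes were 0.99 in control and 1.11 in Vegfc-deficient hearts.

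Fzd2 (ENSMUSG00000050288, chr11:102604396-102608058), a receptor of Wnt5a among other ligands, was at 7.22 and 4.62 CPM in naive control, 4.12, 6.05 and 4.23 CPM in naive Vegfc-deficient, 38.2, 30.3 and 52.0 CPM in MI control and 39.7, 49.2 and 43.8 CPM in MI Vegfc-deficient libraries. Naive and MI libraries were far apart and the genotypes overlapped after MI. In control hearts Fzd2 rose by 2.76 on the log2 scale (standard error 0.29, adjusted p = 0.00018 by edgeR), and in Vegfc-deficient hearts by 3.21 (standard error 0.26, adjusted p = 3.0e-05 by edgeR). Fzd1 was at 14.4 and 12.5 CPM, 14.1, 10.4 and 9.77 CPM, 59.3, 47.6 and 77.4 CPM, and 96.1, 61.3 and 68.2 CPM in the same groups. Again no MI library reached down to a naive one. Its log2 fold change was 2.19 (standard error 0.28, adjusted p = 0.00031 by edgeR) and 2.72 (standard error 0.24, adjusted p = 3.9e-05 by edgeR).

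Fzd4, known in blood vessels as the receptor of the non-Wnt ligand norrin, was at 97.8 and 89.3 CPM in naive control, 64.8, 78.3 and 89.8 CPM in naive Vegfc-deficient, 118.7, 70.4 and 73.3 CPM in MI control and 131.5, 96.3 and 93.5 CPM in MI Vegfc-deficient libraries. Control groups overlapped, and in Vegfc-deficient hearts all MI libraries were above the naive ones without passing the test (log2 fold change 0.46, standard error 0.22, adjusted p = 0.096 by edgeR), which they passed without M006. In control hearts its log2 fold change was -0.10 (standard error 0.25), a sign that turned with upper-quartile scaling. Per kilobase Fzd4 led all members in naive hearts at 12.5 CPM per kilobase (range 9.64 to 14.5), next to Sfrp1 at 9.82 (range 8.30 to 11.4) and Sfrp2 at 8.72 (range 3.73 to 17.2), and these ranges overlap. After MI the mean per kilobase of Fzd1, 16.3 (range 11.3 to 22.9), lay beside that of Fzd4, 14.5 (range 10.5 to 19.6), so that their order was not distinct.

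Fzd6, a receptor known for planar cell polarity, took another course. It was at 22.6 and 28.6 CPM in naive control, 43.9, 50.5 and 43.5 CPM in naive Vegfc-deficient, 36.6, 16.9 and 22.3 CPM in MI control and 32.1, 26.5 and 22.7 CPM in MI Vegfc-deficient libraries. The 3 naive Vegfc-deficient libraries were the highest of all 11, M149 included. Fzd6 fell by 0.76 on the log2 scale after MI in Vegfc-deficient hearts (standard error 0.25, adjusted p = 0.025 by edgeR), a call lost without M150, M900 or M913, and its log2 fold change in control hearts was -0.02 (standard error 0.28).

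The other rising receptors, Fzd5, Fzd7, Fzd8 and Lrp5, had log2 fold changes of 0.99 to 2.21 in control and 1.11 to 2.27 in Vegfc-deficient hearts. The control calls of Fzd5, Fzd7 and Fzd8 were lost without M45, and that of Fzd7 also without M44. Fzd3 and Lrp6, called in Vegfc-deficient hearts, lost the call without M34 or M900, and Fzd3 also without M149 or M913. Lrp5, a coreceptor for the beta-catenin branch, was called under all 19 alternatives in both genotypes. Fzd9 was not called in either genotype.

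**Figure D3:**
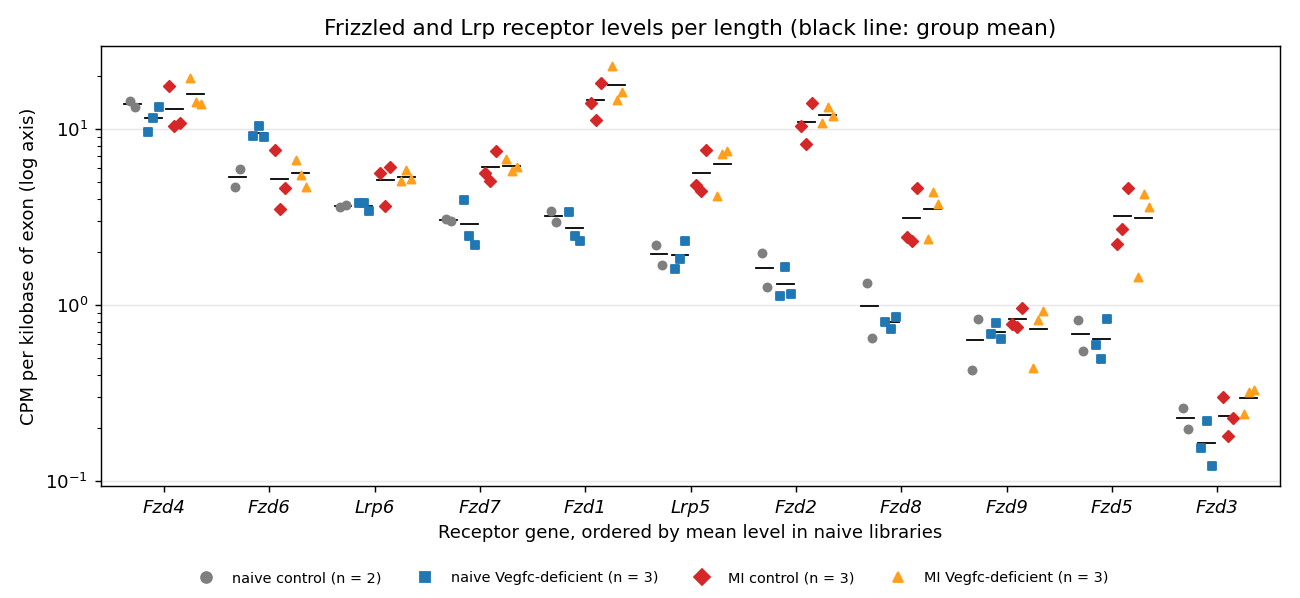
Levels of the 11 receptor genes as CPM per kilobase of exon (log axis) in each library, ordered by the mean over naive libraries, with black lines at group means. Fzd4 is highest before MI; after MI Fzd1 and Fzd2 reach the range of Fzd4, and Fzd6 in naive Vegfc-deficient hearts lies above the other groups.

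Among the 11 ligand genes, Wnt5a and Wnt16 were higher after MI in both genotypes, and Wnt11 in Vegfc-deficient hearts. Both counts, 2 and 3 of 11, are below the shares of all genes that were higher (26.1% and 29.9%). Wnt16, which is in both counts, met the count rule through MI libraries alone, as did Wnt2b and Wnt6. All of these enter the ligand medians. The median log2 fold change of ligands was 0.18 in control and 0.81 in Vegfc-deficient hearts, and 8 of the 19 Wnt genes counted did not meet the count rule.

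Wnt16 was nearly absent from naive hearts, with 0 counts in both control libraries and 1 count in total in the 3 Vegfc-deficient libraries (M34). After MI its counts came to 52 in the 3 control libraries, or 0.323, 0.609 and 1.03 CPM, and to 30 in the 3 Vegfc-deficient libraries, or 0.176, 0.839 and 0.290 CPM. Against a floor of 3 counts over the naive control group, it was at least 5.11-fold higher in MI control hearts. In Vegfc-deficient hearts the ratio was 14.2 (exact 95% counting interval 2.36 to 579). Its calls (adjusted p = 0.015 and 0.031 by edgeR) were lost, the first without M44 or M45 and the second without M149 or M150. Without M40 or M900 Wnt16 did not pass edgeR's filter on low counts, and neither comparison was tested. The same held for the second comparison with only the groups compared in the fit.

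Wnt5a, best known for signaling without beta-catenin, was named after its values were seen. It was at 5.35 and 5.26 CPM in naive control, 5.20, 5.93 and 7.0 CPM in naive Vegfc-deficient, 15.6, 9.33 and 20.5 CPM in MI control and 17.6, 14.3 and 10.6 CPM in MI Vegfc-deficient libraries. No MI library overlapped a naive one, and the log2 fold change was 1.51 (standard error 0.34, adjusted p = 0.0047 by edgeR) and 1.22 (standard error 0.29, adjusted p = 0.0050 by edgeR). Wnt11, whose promoter is printed above, was at 7.14 and 8.61 CPM, 6.28, 5.81 and 7.16 CPM, 10.9, 9.97 and 14.1 CPM, and 13.6, 6.92 and 10.5 CPM. M900 lay within the naive range, and the Vegfc-deficient call (log2 fold change 0.68, standard error 0.25, adjusted p = 0.040 by edgeR) was lost under DESeq2 and limma-voom, among other alternatives. In control hearts all 3 MI libraries lay above both naive ones, but the value of 0.56 on that scale did not pass (standard error 0.28, adjusted p = 0.12 by edgeR).

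Wnt4, a ligand active in mesenchymal and epithelial differentiation, varied widely between MI mice and was also named after its values were seen. In naive libraries it was at 0.178 to 1.71 CPM. After MI it was at 1.02, 1.86 and 19.96 CPM in control and 10.7, 3.61 and 2.19 CPM in Vegfc-deficient libraries. M40 and M35 stood apart, and the same libraries had the highest summed markers of epicardium and mesothelium (8 of 8 genes matched, none at 0), at 227.2 and 191.8 CPM against 68.4 to 97.5 CPM in the other 4 MI libraries and 34.96 to 48.7 CPM in naive libraries. The part of those cells in the result was not tested. Wnt4 did not pass the test in either genotype (adjusted p = 0.065 and 0.12 by edgeR), whereas DESeq2 called it in both.

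The other ligands, Wnt2, Wnt2b, Wnt5b, Wnt6, Wnt9a, Wnt9b and Wnt10b, were not called in either genotype, although Wnt6 was called in Vegfc-deficient hearts without M149. Levels of Wnt5b and Wnt9a ran from 3.64 to 10.4 CPM and the other 5 stayed under 4 CPM in all libraries.

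All 3 R-spondins rose after MI in control hearts, where 26.1% of all genes were higher. In Vegfc-deficient hearts 2 rose, Rspo2 and Rspo3, where 29.9% of all genes were higher. Rspo2 and Rspo3 met the count rule through MI libraries alone, so that their rise is no support for the group. Rspo1 (ENSMUSG00000028871, chr4:124986430-125009099) was at 2.23 and 2.99 CPM in naive control, 3.92, 3.99 and 3.91 CPM in naive Vegfc-deficient, 10.8, 11.5 and 17.2 CPM in MI control and 9.76, 5.49 and 3.81 CPM in MI Vegfc-deficient libraries. MI control libraries were the highest of all, and M913 was below every naive Vegfc-deficient library. The log2 fold change after MI was 2.33 (standard error 0.41, adjusted p = 0.0014 by edgeR) in control and 0.68 (standard error 0.34, adjusted p = 0.11 by edgeR) in Vegfc-deficient hearts, where it passed the threshold without M913 (0.93).

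Rspo2 had 0 counts in both naive control libraries and 1 in the 3 naive Vegfc-deficient libraries. Its MI counts were 86 in control libraries (0.538, 1.86 and 0.770 CPM) and 40 in Vegfc-deficient libraries (0.118, 0.797 and 0.787 CPM), at least 8.46-fold over the naive control floor of 3 counts in the former and a ratio of 18.9 (exact 95% counting interval 3.21 to 766) in the latter. Its control call was lost without either naive control library and its Vegfc-deficient call without M149, M150, M900 or M913. With only the Vegfc-deficient groups in the fit, Rspo2 did not pass edgeR's filter on low counts and was not tested. Rspo3, known in heart for its expression in endothelial and other stromal cells, was at 0.0892 and 0.181 CPM in naive control, 0.196, 1.57 and 0.488 CPM in naive Vegfc-deficient, 1.83, 1.45 and 2.24 CPM in MI control and 2.59, 3.98 and 1.08 CPM in MI Vegfc-deficient libraries. With 3 counts in the naive control group, its ratio in control hearts was 13.6 (exact 95% counting interval 4.55 to 66.6), and that call too was lost without either naive control library. M150 overlapped the MI range, and the log2 fold change in Vegfc-deficient hearts was 1.81 (standard error 0.67, adjusted p = 0.039 by edgeR), falling short of the threshold under limma-voom and without M149 (1.35), M34, M35, M900 or either naive control library, and with only the groups compared in the fit. The intervals cover counting error and not differences between mice.

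None of the 3 Lgr receptors was called higher by edgeR, where 26.1% of all genes in control and 29.9% in Vegfc-deficient hearts were. With 3 genes, the lack of a rise cannot be set apart from these shares. Lgr4, at 12.3 to 22.4 CPM over all libraries, was not called in either genotype, although it was called in Vegfc-deficient hearts without M149. Lgr5, a target gene of the pathway in many stem cells, was at 0.178 and 0.453 CPM in naive control, 0.294, 0.121 and 0.163 CPM in naive Vegfc-deficient, 0.161, 0.169 and 0.954 CPM in MI control and 2.12, 0.629 and 0.248 CPM in MI Vegfc-deficient libraries. M40 and M35, the libraries high in Wnt4, were the highest, all groups overlapped, and neither comparison was called (adjusted p = 0.75 and 0.087 by edgeR), although Vegfc-deficient hearts passed without M913. The log2 fold change of 0.46 in control hearts turned to -0.90 without M40. Lgr6, named after its values were seen, was at 16.1 and 13.8 CPM in naive control and 4.41, 1.35 and 2.49 CPM in MI control libraries and fell by 2.46 on the log2 scale (standard error 0.64, adjusted p = 0.010 by edgeR), a call lost without M44. Naive Vegfc-deficient libraries were split for Lgr6, with M150 at 15.2 CPM and M149 and M34 at 3.63 and 4.80 CPM, and they overlapped the MI Vegfc-deficient libraries at 2.29, 3.86 and 5.88 CPM.

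Of the 4 intracellular feedback genes, Nkd1 and Nkd2 rose after MI in both genotypes, and Axin1 and Axin2 were not called by edgeR. Of all genes, 26.1% were higher in control and 29.9% in Vegfc-deficient hearts. All 4 log2 fold changes were positive in both comparisons, with medians of 1.305 in control and 1.21 in Vegfc-deficient hearts. Nkd2 (ENSMUSG00000021567, chr13:73818534-73847631), whose protein binds Dishevelled and damps Wnt signaling, was at 6.78 and 7.07 CPM in naive control, 6.86, 7.99 and 7.41 CPM in naive Vegfc-deficient, 58.7, 56.2 and 55.4 CPM in MI control and 57.1, 62.1 and 75.6 CPM in MI Vegfc-deficient libraries. Its standard errors were the smallest among rising members, and its adjusted p was the lowest of all members in both comparisons. Log2 fold changes were 3.03 (standard error 0.16, adjusted p = 2.9e-05 by edgeR) in control and 3.13 (standard error 0.14, adjusted p = 4.2e-06 by edgeR) in Vegfc-deficient hearts. Nkd1, its close relative, rose from 1.61 and 1.90 CPM to 9.37, 6.76 and 9.94 CPM in control hearts and from 1.37, 1.94 and 3.17 CPM to 7.23, 9.18 and 5.96 CPM in Vegfc-deficient hearts, with no overlap. Its log2 fold change was 2.30 (standard error 0.38, adjusted p = 0.0011 by edgeR) and 1.77 (standard error 0.32, adjusted p = 0.0011 by edgeR).

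Axin2 (ENSMUSG00000000142, chr11:108920349-108950783), the target gene most often used as a readout of beta-catenin signaling, was at 0.981 and 1.36 CPM in naive control, 0.686, 1.09 and 1.46 CPM in naive Vegfc-deficient, 1.56, 1.22 and 1.58 CPM in MI control and 2.59, 0.839 and 1.78 CPM in MI Vegfc-deficient libraries. Groups overlapped in both genotypes, and depth was low, at 7 to 44 counts per library. The log2 fold change was 0.31 (standard error 0.52, adjusted p = 0.64 by edgeR) in control and 0.66 (standard error 0.46, adjusted p = 0.24 by edgeR) in Vegfc-deficient hearts. Axin1, the scaffold of the destruction complex, was at 25.3 to 39.8 CPM over all libraries and was not called by edgeR (adjusted p = 0.17 and 0.072), although limma-voom and upper-quartile factors called it higher in Vegfc-deficient hearts, as did the fit without M35.

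Of the nuclear factors, Tcf7 rose in both genotypes and Lef1 was too low to test. Tcf7, which is also a factor of T cells, was at 0.803 and 0.634 CPM in naive control, 1.18, 0.968 and 2.12 CPM in naive Vegfc-deficient, 2.64, 8.11 and 2.64 CPM in MI control and 3.94, 3.94 and 3.19 CPM in MI Vegfc-deficient libraries. M38 stood far above the rest, and Lef1 was also highest there, at 1.01 CPM against 0.294 and 0.431 CPM in the other MI control, 0.252 to 0.529 CPM in MI Vegfc-deficient and 0.0980 to 0.570 CPM in naive libraries. T cell markers summed to 176.7 CPM in M38 and to 21.2 to 37.1 CPM in the other MI libraries (9 of 10 genes matched, none at 0 in MI libraries). Without M38 the naive and MI libraries still did not overlap for Tcf7. The log2 fold change of Tcf7 was 2.63 (standard error 0.62, adjusted p = 0.0058 by edgeR) in control and 1.35 (standard error 0.49, adjusted p = 0.037 by edgeR) in Vegfc-deficient hearts, where the control call was lost without M45 and the Vegfc-deficient one without M149 (1.22), M150, M35, M900 or M913 and under limma-voom.

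**Figure D4:**
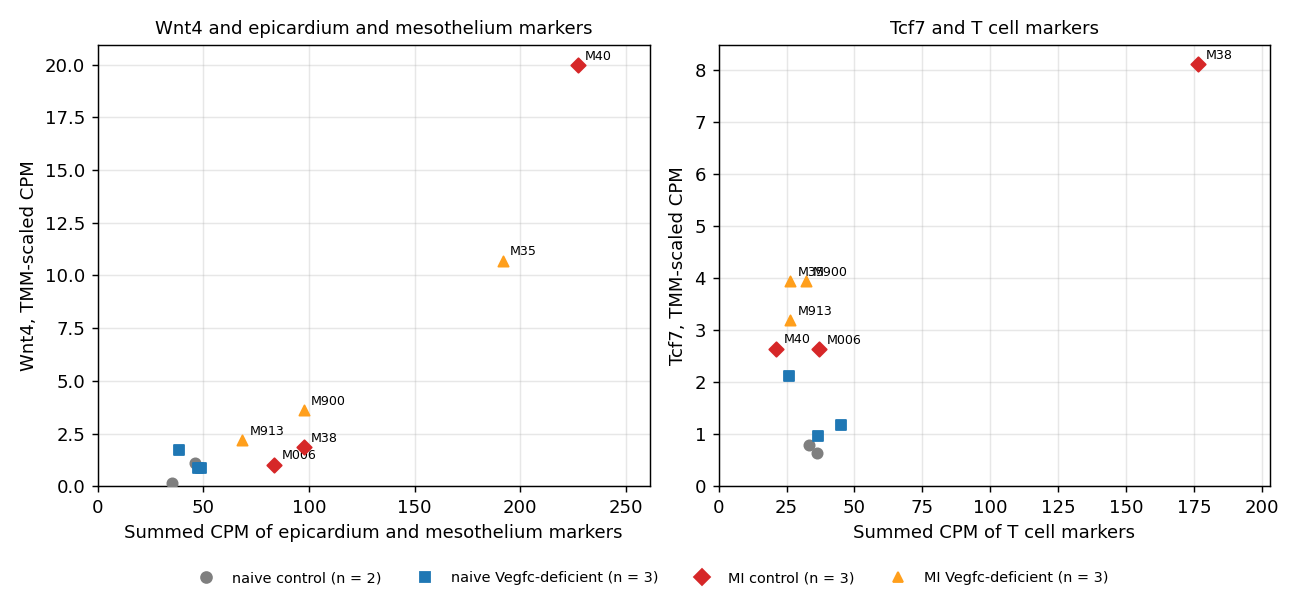
Left, Wnt4 CPM against the summed CPM of epicardium and mesothelium markers; right, Tcf7 CPM against summed T cell markers; 1 point per library, MI libraries named. M40 and M35 are highest on both axes on the left, and M38 on both axes on the right.

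Genes of the wider pathway were taken from 8 lists holding 67 genes, of which 61 were tested. After MI 29 were higher and 5 lower in control hearts, and 34 were higher and 4 lower in Vegfc-deficient hearts, where 26.1% of all genes tested were higher and 24.1% lower in control and 29.9% and 27.6% in Vegfc-deficient hearts. The counts by list below are read against these shares. Among 7 tested extracellular modulators, 5 rose in each genotype, and Kremen1, a receptor of Dkk proteins, fell in control hearts (-0.77 on the log2 scale). In control hearts the largest rises of this list were those of Cthrc1, a collagen triple-helix protein of scar fibroblasts, then Sost and Tpbg. Cthrc1 was at 1.69 and 2.08 CPM in naive control and 468.1, 495.4 and 740.1 CPM in MI control libraries. Sost was near the floor in naive control libraries, at 0.357 and 0.181 CPM. Its log2 fold change was 3.27 in control and 1.08 in Vegfc-deficient hearts. Of 11 tested alternative receptors and planar polarity genes, 5 rose and 1 fell in control and 7 rose and 1 fell in Vegfc-deficient hearts, and Ptk7, Ror2 and Vangl2 had log2 fold changes of 2.82, 2.17 and 2.09 in control hearts. Wls, which carries Wnt proteins to the cell surface, rose by 1.26 on the log2 scale in control and 1.10 in Vegfc-deficient hearts.

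Within the cell, 3 of 12 genes of beta-catenin and its destruction complex rose in control hearts (Dvl2, Tnks and Tnks2), a share no higher than the 26.1% of all genes, and 6 rose in Vegfc-deficient hearts, where 29.9% of all genes did. Of 6 further feedback genes, Dact1, Dact3 and Amer1 rose in both genotypes, and 1 fell in control and 2 in Vegfc-deficient hearts. Among 11 TCF partners 7 rose and 1, the corepressor relative Aes, fell in each genotype, with Aes at 1002 to 1139 CPM in naive and 267.9 to 472.4 CPM in MI libraries. Of 9 tested genes reported elsewhere as beta-catenin targets 5 rose in each genotype, among them Ccn4, Ccn5 and Myc, and the log2 fold change of Ccn4 was 6.01 in control and 4.95 in Vegfc-deficient hearts. Neither Rnf43 nor Znrf3, which remove Frizzled receptors, was called, Rnf43 being too low to test.

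Whether loss of myeloid Vegfc changed these genes in the infarct was asked by comparing MI Vegfc-deficient with MI control hearts, which share no library. No member was called by edgeR, as for 0% of all genes, and DESeq2 and limma-voom also called 0 members (DESeq2 called 62 genes in all and limma-voom 0). Unadjusted p was under 0.05 for 3 members, Rspo1, Sfrp1 and Sfrp4, against 7.88% of all genes tested. Rspo1 was also the single member whose groups did not overlap, against 12.1% of all genes. The median log2 fold change of the members was 0.10.

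Rspo1 averaged 6.35 ± 3.06 CPM (SD, n = 3) in MI Vegfc-deficient and 13.2 ± 3.50 CPM (SD, n = 3) in MI control hearts, with a log2 fold change of -1.06 (standard error 0.32, adjusted p = 0.59 by edgeR) that ran from -1.50 without M35 to -0.78 without M913. Sfrp1 averaged 499.8 ± 174.1 CPM and 329.9 ± 40.1 CPM, respectively (log2 fold change 0.60, standard error 0.25, adjusted p = 0.61 by edgeR), and M35 lay within the control range. Sfrp4 averaged 10.8 ± 2.64 CPM and 5.14 ± 3.31 CPM (log2 fold change 1.08, standard error 0.41, adjusted p = 0.59 by edgeR), with M006 above M913. None of these differences passed the threshold after adjustment over all genes tested. Sfrp2, Dkk3 and Frzb, the most abundant inhibitors beside Sfrp1, had log2 fold changes of -0.01 (standard error 0.36), 0.00094 (standard error 0.27) and 0.09 (standard error 0.27) between the MI genotypes.

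The same question in naive hearts gave 0 members called by edgeR, DESeq2 or limma-voom, where edgeR called 0% of all genes, DESeq2 14 and limma-voom 6. Unadjusted p was under 0.05 for 4 members, Rspo3, Fzd6, Frzb and Sfrp2, all higher in Vegfc-deficient hearts, against 3.32% of all genes. Groups did not overlap for 6 members (Rspo1, Rspo3, Fzd6, Sfrp2, Sfrp4 and Tcf7), all higher, against 22.4% of all genes. Sfrp2 averaged 25.3 ± 13.2 CPM (SD, n = 3) and 8.91 ± 1.24 CPM (SD, n = 2), a log2 fold change of 1.51 (standard error 0.44, adjusted p = 1 by edgeR) that was 1.87 without M149 (adjusted p = 0.073 by edgeR) and 1.12 without M34.

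The library M149, with control-like Lyz2, lay beside the naive controls for several of these genes. For Sfrp2, Frzb, Dkk3 and Rspo3 it was at 11.1, 14.4, 4.71 and 0.196 CPM, while M150 and M34 were at 27.8 and 37.1, 34.7 and 32.5, 11.01 and 11.3, and 1.57 and 0.488 CPM. M149 was also the lowest for Cthrc1, of the wider pathway, at 3.92 CPM against 10.2 and 24.7 CPM. For Fzd6 and Rspo1 it was level with M150 and M34. Without M149 the log2 fold change of Frzb moved from 0.74 to 1.05 (adjusted p = 0.10 by edgeR) and that of Rspo3 from 2.36 to 2.82, and the count of members called stayed at 0. Summed activated fibroblast markers were 726.6 and 606.2 CPM in naive control and 1032, 967.7 and 1002 CPM in naive Vegfc-deficient libraries. The sum of M149 held 584.0 CPM of Fn1, against 159.6 to 265.0 CPM in the other naive libraries. Fn1 was left out of the list only after these values were seen. Without it the other 7 markers summed to 448.2 CPM in M149, within the range of the naive controls (467.6 and 341.2 CPM). In M150 and M34 they summed to 808.0 and 788.1 CPM. Only in this sum without Fn1 were M150 and M34 high and M149 level with the controls, as for the 4 members above. In the sum of all the markers M149 was instead the highest of the naive libraries. The part of the markers in these values was not tested.

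**Figure D5:**
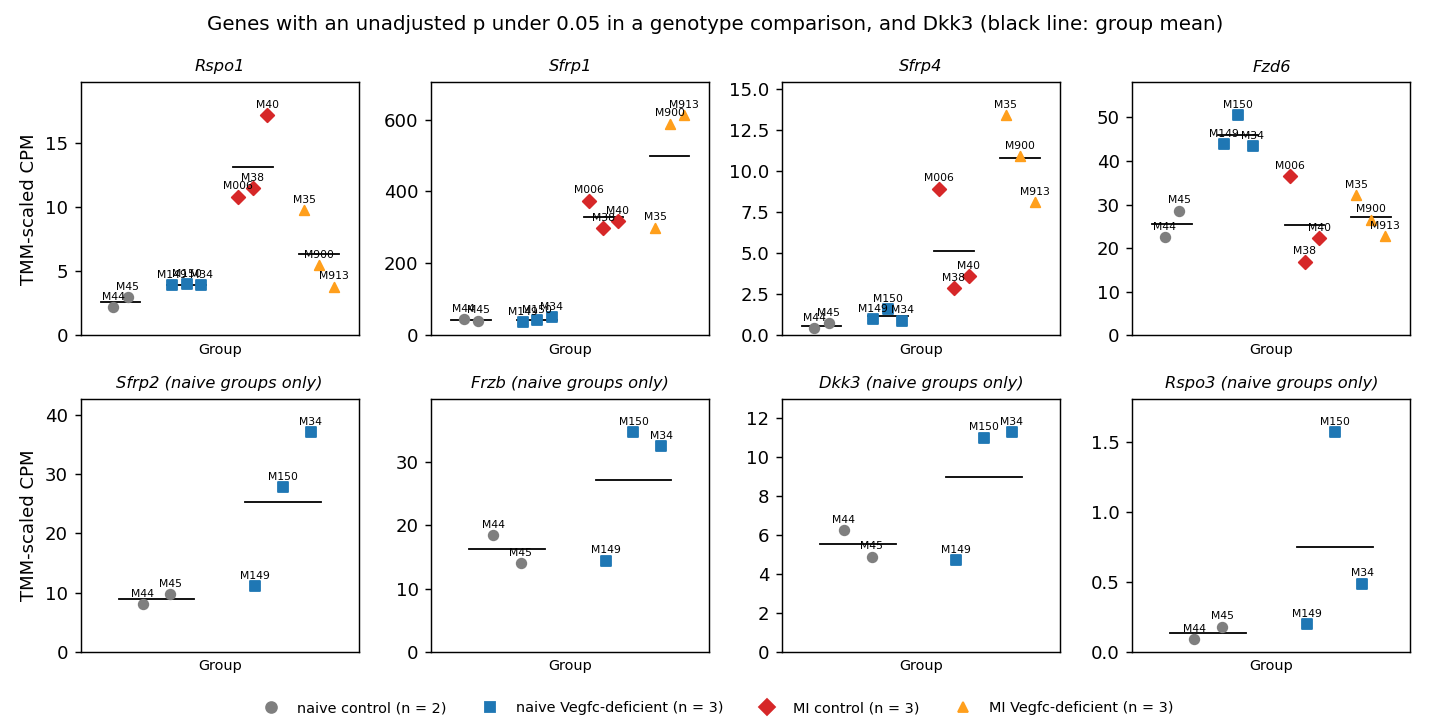
CPM by library for the 7 members with an unadjusted p under 0.05 in a genotype comparison, and for Dkk3, with black lines at group means; the lower row shows the naive groups alone. Rspo1 is lower in the 3 MI Vegfc-deficient than in the 3 MI control libraries, and in the lower row, for Sfrp2, Frzb, Dkk3 and Rspo3, M149 lies near M44 and M45 while M150 and M34 are higher.

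No member passed edgeR's test of the interaction between MI and genotype, as for 0% of all genes, nor that of DESeq2, which called 58 genes in all, or limma-voom, which called 0. Unadjusted p was under 0.05 for Rspo1 and Sfrp2, 2 members, against 8.27% of all genes. The interaction was -1.65 on the log2 scale for Rspo1 (standard error 0.52, adjusted p = 0.54 by edgeR), and leaving out M149 left it at -1.65. For Sfrp2 it was -1.52 (standard error 0.57, adjusted p = 0.56 by edgeR) and -1.87 without M149. Members called in 1 genotype and not in the other (Rspo1, Lgr6 and Wif1 in control, and Wnt11, Fzd3, Fzd6 and Lrp6 in Vegfc-deficient hearts) are therefore not shown to respond differently.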

How the data were processed

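Libraries were stranded mRNA libraries (TruSeq) of left ventricle from 11 mice. The submitters' notes name cutadapt 1.13, STAR, HTSeq 0.6.1p1, DESeq2 1.14.1 and the build mm10, and the strand setting of counting is not given in the sources used here. The authors deposited 1 table of raw read counts per library, on 25006 Ensembl genes and without normalization. Symbols came from a list of gene names (24942 genes matched), and positions and exon lengths from GENCODE M21 (24991 genes matched). No other counted gene shared exon bases with a member, but 8 members, Sfrp2, Axin2, Rspo3 and Wnt5a among them, share 3.15 to 17.8% of their exon length with an opposite-strand gene that is not in the tables, whose reads cannot be told apart without the strand setting.

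Counts were fitted for all genes with edgeR 4.0.16 in R 4.3.3 (TMM factors, filterByExpr by group, robust quasi-likelihood test, 1 fit of 4 groups, Benjamini-Hochberg adjustment over 14779 genes, threshold 0.05). Log2 fold changes are edgeR's, and standard errors are the log2 fold change divided by the root of F. Pipelines were tested on simulated data. Alternatives were DESeq2 1.42.0, limma-voom with quality weights (limma 3.58.1), other scaling factors, filters, samples and threshold, and leaving out each library. P-values set each difference against a spread between mice that was estimated over all 4 groups together, and groups of 2 and 3 limit them. The members and the gene and marker lists were chosen with earlier results of these data known.

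Values in each library were given for the 12 members with the largest mean change among those called in both MI comparisons, for feedback and target members, for members with unadjusted p under 0.05 between genotypes or for the interaction, and for the 3 highest per kilobase in naive and in MI libraries. Other genes named with values were chosen after these were seen. Of each pathway list, up to 3 genes with the smallest p in control hearts could be named. Counting intervals are exact (95%), and the floor was 3 counts over a group.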

Additional observations from a re-analysis of the deposited data

How the results depend on the processing

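With 2 to 3 mice per group, the counts rest on single libraries. Members called in control hearts (22) ranged from 13 (without naive control M45) to 24 (without MI control M38) when each library was left out. In Vegfc-deficient hearts (23) they ranged from 16 (without M900) to 24, and came to 15 at an adjusted p under 0.01. Of the members, 11 were called in both MI comparisons under all 19 alternative fits (Wnt5a, Fzd1, Fzd2, Lrp5, Dkk3, Frzb, Sfrp1, Sfrp2, Sfrp4, Nkd1 and Nkd2), and no alternative called a member between genotypes or for the interaction. Signs turned, without a call, in control hearts for Fzd4 (0.0076 with upper-quartile factors; -0.38 to 0.016 with a library left out), Fzd6 (0.084; -0.39 to 0.16) and Lgr5 (-0.90 to 1.26 with a library left out). Over the named genes' log2 fold changes, 833 alternative values kept direction and side of the threshold, 32 lost the call, 3 gained it and 8 turned in sign. The cause was not tested. Upper-quartile factors moved the median log2 fold change of all genes by 0.105 in control and 0.103 in Vegfc-deficient hearts. At an average under 1 CPM, as for Rspo2, Wnt16 and Lgr5, depth limits the errors. No paired analysis was possible because the labels give mouse numbers that no 2 groups share.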
